A study of Mus musculus with 18 samples.

Results

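The genes of the insulin-like growth factor (IGF) system were followed across every cell cluster of the adult mouse stomach. The 10 members, of 31201 gene names in all, were chosen by name as genes of this system, with earlier results of these data known. They are the ligands Igf1 and Igf2, the receptors Igf1r, Igf2r and Insr, and the binding proteins Igfbp2, Igfbp3, Igfbp4, Igfbp5 and Igfbp7. Single cells came from the glandular stomach of untreated adult male C57BL/6J wild-type mice, and Quartz-Seq2, a plate-based method that counts transcripts by unique molecular identifiers (UMIs), was used to measure them. Dataset 1 held corpus and antrum gastric units (491 cells on 6 plates, 15 clusters), and dataset 2 held corpus gastric units only, with nucleated cells selected by Hoechst33342 (3993 cells on 12 plates, 20 clusters). Each dataset had 2 pools, tube1 and tube2 in dataset 1 and K and T in dataset 2, and each pool came from 3 mice and its own operator. All mice were of the same genotype and none was treated, so the comparisons are between cell types.

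IGF1 and IGF2 are secreted growth factors that signal through the tyrosine kinase receptor IGF1R, while INSR binds insulin and, in one isoform, IGF2. IGF2R carries no kinase: it takes up IGF2 for degradation and sorts lysosomal enzymes. The binding proteins hold IGFs in the blood and between cells and can either restrain them or keep them near a receptor; IGFBP7 binds IGFs only weakly. In the gastric corpus, progenitor cells of the isthmus give rise to mucous pit cells above and to neck cells below, and parietal cells secrete acid. Pepsinogen-secreting chief cells at the base were long held to arise from neck cells. The paper adds that recent studies propose that chief cells renew themselves.

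Levels are given as CPM, the UMIs of a gene per 1000000 UMIs of the summed cells, in each pool, pool K or tube1 first. The reads came from the 3′ side of transcripts, and levels are compared between cell types for the same gene only. Totals ranged from 2551126 to 4773020 UMIs per plate in dataset 1 and from 10463555 to 12745419 in dataset 2, with a median of 38757 and 31020 UMIs per cell. Differences are log2 fold changes of pool sums from edgeR's quasi-likelihood test with TMM scaling (a scaling that assumes most genes to be alike), with p adjusted over all genes tested by the Benjamini-Hochberg method and called under 0.05. Since the clusters were made from the same counts, a p measures the distance between clusters relative to the spread between pools. Scaling by total UMIs instead, an alternative chosen after the data were seen, lowered the log2 fold changes by 0.35 in mature pit, 0.21 in pre-pit and 0.50 in parietal cells, and by 0.82 in chief against neck cells, so both values are given where the choice matters. The share of higher genes among all calls then moved from 47.1% to 18.1% in mature pit, from 44.4% to 14.4% in pre-pit, from 49.0% to 27.2% in parietal and from 48.3% to 7.27% in chief cells, and from 52.0% to 44.7% in neck cells. In dataset 1 it moved from 46.1% to 18.7% in corpus pit and from 47.0% to 30.3% in parietal cells, while neck cells were little affected.

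The cell type names were checked against marker genes. Parietal clusters held Atp4a, Atp4b and Kcnq1 at a summed 32070 to 43950 CPM in dataset 2, and the endothelial cluster held its own markers at 19870 to 21020 CPM. In the chief cluster Cblif and Bhlha15 stood above the neck clusters, but Pga5 (80.9 and 76.0 CPM) did not, and neck cells also held much Pgc. The cluster named ECL held more Ghrl (17201 and 25896 CPM) than Hdc (7020 and 4466 CPM), and the D cell cluster also held 15340 and 2383 CPM of Ghrl beside its Sst. The leukocyte clusters carried the macrophage genes C1qa and Csf1r and no Cd3e, while the tuft-like cells of tube2 also held 522 CPM of Cd3e, a T cell gene. Cluster 15 of dataset 2 was split by these markers into 26 tuft-like cells and 5 stromal-like cells, all 5 in pool K, with 1 cell of neither kind. The parietal clusters of dataset 2 had a median of 22.8% and 12.6% mitochondrial UMIs, against 3.52% to 5.76% in its pit, isthmus, neck and chief clusters, and its part in their values was not tested.

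**Figure D1:**
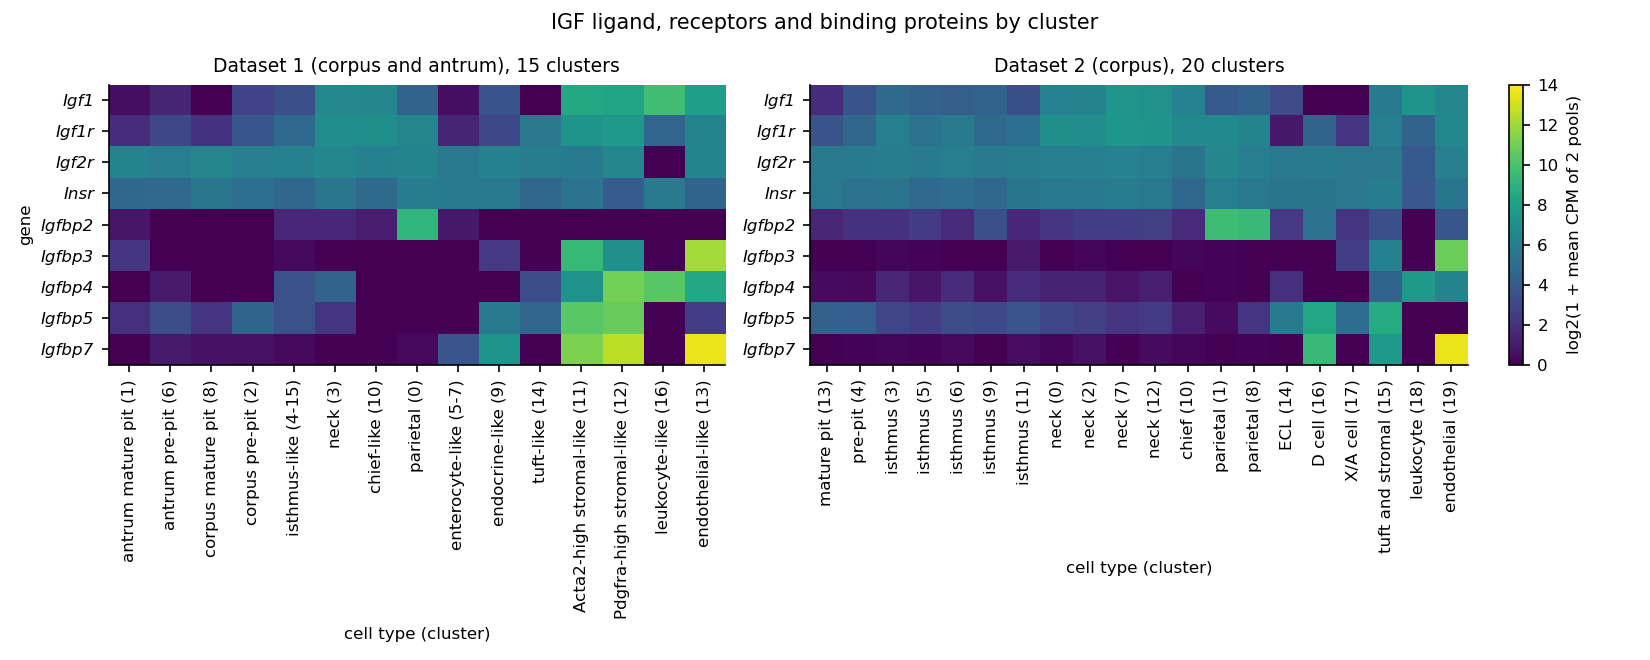
Heat map of log2(1 + mean CPM of the 2 pools) of 9 members (rows; Igf2 is left out) in the 15 clusters of dataset 1 and the 20 clusters of dataset 2 (columns, named by type), with brighter colours for higher levels. Igf1 and Igf1r were high in neck, chief and stromal clusters, Igf1 also in leukocyte clusters, Igfbp2 in parietal clusters, and Igfbp3, Igfbp4, Igfbp5 and Igfbp7 outside the major epithelial types, while Igf2r and Insr were spread over the epithelium.

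Of all 10 members, 7 passed the filter on low counts in the epithelial fits, where Igf2, Igfbp3 and Igfbp7 were too low to test. Against isthmus cells in dataset 2, 4 of 7 members were called in mature pit cells, 2 higher and 2 lower (38.0% of all genes were called, 17.9% higher and 20.1% lower). In pre-pit cells 2 of 7 were called, 1 in each direction (27.8% of all genes, 12.3% higher and 15.5% lower). In neck cells 4 of 7 were called, all higher (50.7% of all genes, 26.4% higher and 24.3% lower), and in parietal cells 6 of 7, 4 higher and 2 lower (71.8% of all genes, 35.2% higher and 36.7% lower). Between chief and neck cells edgeR called no member (38.6% of all genes, 18.6% higher and 19.9% lower), 2 had an unadjusted p under 0.05, and DESeq2 called 1. In dataset 1, 6 of 7 were called in corpus pit cells against isthmus-like cells, 2 higher and 4 lower (40.7% of all genes, 18.8% higher and 22.0% lower). Neck cells had 3 of 7 called, all higher (29.3% of all genes, 13.1% higher and 16.2% lower), and parietal cells 7 of 7, 5 higher and 2 lower (60.3% of all genes, 28.3% higher and 32.0% lower). Igfbp2 passed the filter in dataset 1 only through the parietal sums, so its higher call among these was fixed in advance. The median log2 fold change of the tested members was -0.80 in mature pit cells (-0.07 over all genes tested), 0.25 in neck cells (0.06 over all) and 0.98 in parietal cells (-0.05 over all).

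Igf1, the main circulating IGF and also a local signal, was highest among the major epithelial types in neck and chief cells. Its gene lies on chromosome 10 (GRCm39, chr10:87693642-87772904, plus strand). Neck cells of dataset 2 held 117 CPM in pool K and 84.0 CPM in pool T, and chief cells held 71.3 and 74.4 CPM. Isthmus cells held 24.3 and 16.1 CPM, parietal cells 15.2 and 17.1, pre-pit cells 15.5 and 7.02, and mature pit cells 1.39 and 3.44 CPM. The pools of neck and of isthmus cells did not overlap, and those of parietal and isthmus cells did. Dataset 1, from other mice, held 80.6 and 109 CPM in neck cells, 8.97 and 10.03 CPM in isthmus-like cells (11 of the 12 UMIs of tube1 lay in 1 cell) and none in either pool of corpus mature pit cells.

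In neck cells Igf1 was higher than in isthmus cells by 2.39 on the log2 scale (SE 0.20, adjusted p = 4.49e-07), and in dataset 1 by 3.31 (SE 0.37, adjusted p = 2.98e-06). Mature pit cells were lower by -2.61 (SE 0.54, adjusted p = 0.0016). In dataset 1 the corpus mature pit cells held no Igf1 UMI, and corpus pre-pit cells held 2.86 and 9.03 CPM against 8.97 and 10.03 CPM in isthmus-like cells, with overlapping values. Pre-pit cells differed from isthmus cells by -0.67 and were not called (adjusted p = 0.116), although a fit with the pool as a replicate block gave adjusted p = 0.045. Chief and neck cells were not told apart at 0.36 (SE 0.21, adjusted p = 0.208), and total scaling turned the sign to -0.46. Parietal and isthmus cells of dataset 2 differed by 0.19 (adjusted p = 0.444), or -0.31 with total scaling, whereas the parietal cells of dataset 1 were higher than isthmus-like cells by 1.61 (SE 0.40, adjusted p = 0.00219). This gap between datasets, -1.48 (SE 0.56), was not called across all genes (adjusted p = 0.268).

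**Figure D2:**
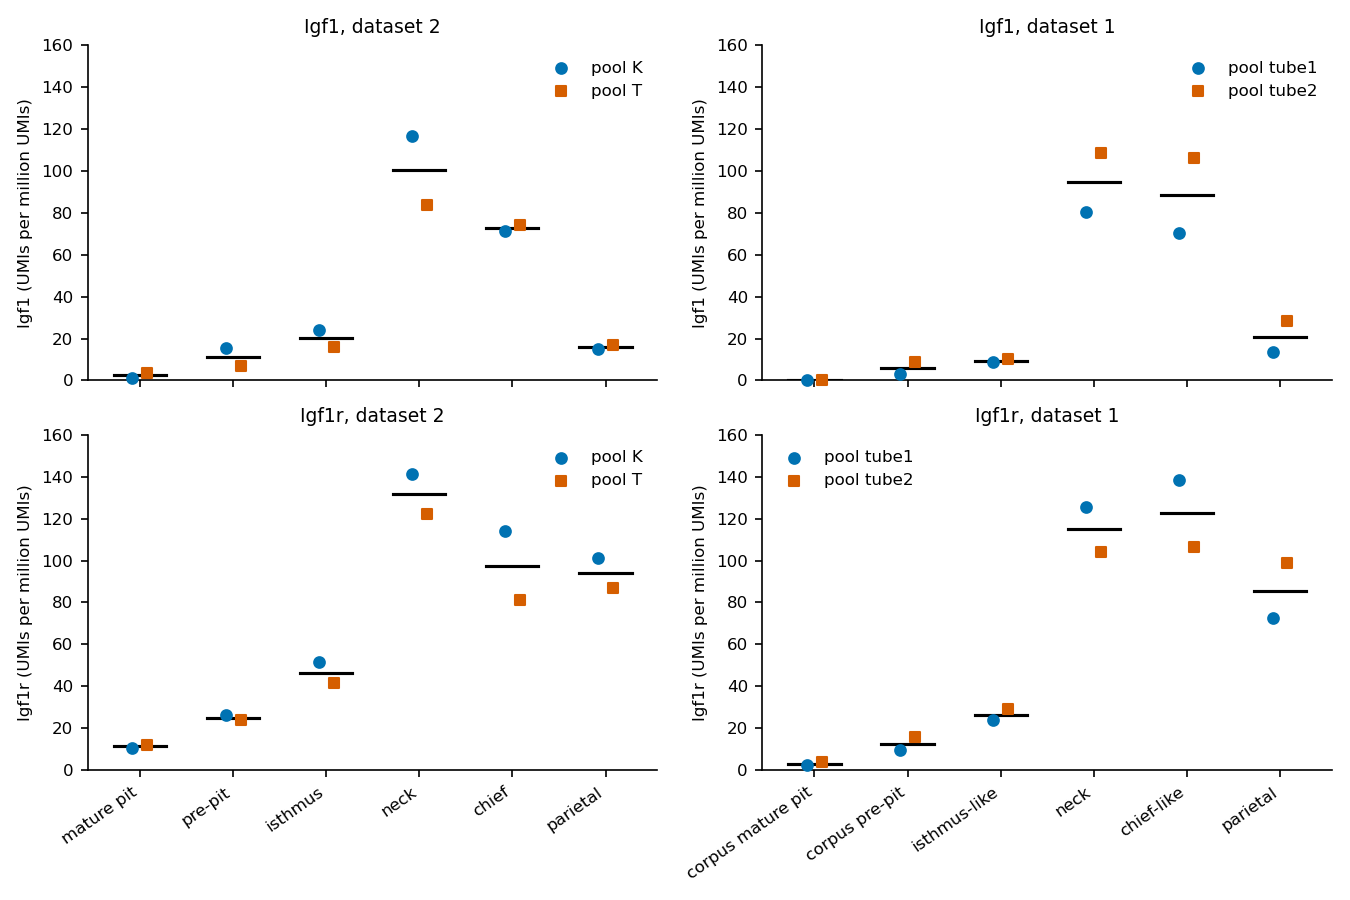
Igf1 and Igf1r levels (CPM, linear axis from 0) by epithelial cell type in both datasets, with circles for pool K or tube1, squares for pool T or tube2 and bars for the mean of the 2 pools. Both genes stood highest in neck and chief cells and lowest in mature pit cells, and Igf1r, unlike Igf1, was also high in parietal cells. The Igf1 of chief-like cells in dataset 1 rested on few cells, with 16 of 31 UMIs of tube1 and 39 of 44 of tube2 in 1 cell each.

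The Igf1 of neck cells was spread over many cells. When each cell was thinned to 10000 UMIs, leaving out shallower cells (9 of 1247 neck cells), 46.2% of neck cells had an Igf1 UMI (572 of 1238, 95% exact binomial interval 43.4% to 49.0%), against 31.1% of chief (56 of 180), 15.5% of isthmus (198 of 1279), 9.99% of parietal (70 of 701), 8.59% of pre-pit and 4.27% of mature pit cells (5 of 117). Without thinning the shares were 62.0% in neck and 48.3% in chief cells, at medians of 22530 and 34844.5 UMIs per cell. No D cell (0 of 27, which by a limit of 3 counts allows a share of up to 11.1%) and no X/A cell (0 of 29, up to 10.3%) had one. In the 4 neck clusters the 8 stromal markers summed to at most 3.15 CPM and the 9 leukocyte markers to at most 1.78 CPM, against at most 2.50 and 1.59 CPM in the isthmus clusters. In each neck cluster 2 to 4 of the stromal and 6 to 8 of the leukocyte markers were at 0.

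Outside the epithelium Igf1 was at its highest level in leukocyte-like and stromal-like cells. Leukocyte-like cells held 1182 and 480 CPM in dataset 1 and 233 and 66.4 CPM in dataset 2. Stromal-like cells held 269.7 and 429.5 CPM in the Acta2-high and 354 and 250.04 CPM in the Pdgfra-high cluster of dataset 1, and 681 CPM in the 5 cells of pool K. The 8 members tested in these comparisons were set against the sum of epithelial cells of the same pool, with a term for the dataset. Igf2 and Insr did not pass the filter on low counts, which acts on these small sums. Insr nevertheless held 22.7 to 70.5 CPM in the epithelial clusters of dataset 2. Igfbp3, Igfbp4, Igfbp5 and Igfbp7 averaged 0.50, 2.36, 6.49 and 0.22 CPM in the epithelial sums. They passed only through classes where they were high, so their higher calls there, also below, were fixed by the filter. Igf1, at 28.7 CPM in the epithelial sums, also passed only through stromal-like, leukocyte-like and endothelial-like sums. That it was higher there was likewise fixed in advance. Igfbp2 passed only through the epithelial sums, which fixed its lower calls in all 5 classes. Stromal-like cells had 7 of 8 called, 6 higher and 1 lower (52.5% of all genes, 25.7% higher and 26.8% lower), and endothelial-like cells 5, 4 higher and 1 lower (51.2% of all genes, 23.0% higher and 28.2% lower). Leukocyte-like cells had 5 called, 2 higher and 3 lower (50.4% of all genes, 21.2% higher and 29.2% lower), tuft-like cells 5, 1 higher and 4 lower (43.2% of all genes, 18.7% higher and 24.5% lower), and endocrine-like cells 6, 2 higher and 4 lower (58.9% of all genes, 27.9% higher and 31% lower). Total scaling raised these differences by 0.21 to 0.57, and moved the higher share of all calls from 48.9% to 59.5% in stromal-like, from 44.9% to 58.0% in endothelial-like, from 43.2% to 75.3% in tuft-like and from 47.3% to 62.4% in endocrine-like cells. Igf1 was higher by 3.495 in stromal-like (SE 0.49, adjusted p = 1.18e-06) and by 3.59 in leukocyte-like cells (SE 0.50, adjusted p = 1.12e-06). In endothelial-like cells it was higher by 2.05 (SE 0.68, adjusted p = 0.0135), but leaving out tube1 (1.42) or tube2 (2.10) gave adjusted p = 0.0817 or 0.0907. Igf1 was lower in endocrine-like cells by -2.35 (adjusted p = 0.0041), a call lost without pool K (-1.46, adjusted p = 0.106).

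Igf2, a fetal growth factor from an imprinted gene, was barely detected. It had 2 UMIs in 2 cells of dataset 1 and 8 UMIs in 8 cells of dataset 2, with no type above 3.22 CPM in any pool. It was not tested.

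Igf1r, the signalling receptor for both ligands, was high in neck, chief and parietal cells and lower in pit cells. Its gene lies at chr7:67601518-67883416 on the plus strand (GRCm39). Neck cells held 141 and 122 CPM, chief cells 114 and 81.2, parietal cells 101 and 87.0, isthmus cells 51.6 and 41.3, pre-pit cells 26.05 and 23.9, and mature pit cells 10.6 and 12.03 CPM. In this order only chief cells overlapped a neighbour, spanning the values of parietal cells. The levels in dataset 1 ran in a like order, with 126 and 104 CPM in neck, 139 and 106 in chief-like, 72.6 and 98.6 in parietal, 23.9 and 28.9 in isthmus-like and 2.198 and 3.80 CPM in corpus mature pit cells.

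Relative to isthmus cells Igf1r was higher in neck cells by 1.57 (SE 0.13, adjusted p = 4.45e-07) and in parietal cells by 1.52 (SE 0.13, adjusted p = 1.43e-07), or by 1.02 in parietal cells with total scaling. It was lower in pre-pit cells by -0.68 (SE 0.17, adjusted p = 0.00759) and in mature pit cells by -1.67 (SE 0.23, adjusted p = 6.6e-05). The dataset 1 values were 2.10 in neck (adjusted p = 6.83e-06), 2.10 in parietal (adjusted p = 4.88e-07) and -1.80 in corpus pit cells (adjusted p = 0.000978). Chief against neck cells gave 0.37 (SE 0.14, adjusted p = 0.0589) with TMM and -0.45 (adjusted p = 0.014) with total scaling, so its direction rested on the scaling. With the pool as a replicate block the TMM value was called (adjusted p = 0.0046).

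After thinning, 69.0% of neck, 58.3% of chief, 57.1% of parietal, 35.3% of isthmus, 22.7% of pre-pit and 9.40% of mature pit cells had an Igf1r UMI, and without thinning 89.5% of neck and 30.6% of mature pit cells had one. Ligand and receptor were met in the same cell in 33.5% of neck cells (415 of 1238), where 31.9% would share both if the genes were independent. The same pair of shares was 17.8% and 18.1% in chief, 7.51% and 5.47% in isthmus and 6.28% and 5.70% in parietal cells, and 31.8% and 31.6% in the neck cells of dataset 1. Within neck cells the 2 genes were found together about as often as their separate shares give.

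Endocrine cells held less Igf1r than the epithelial cells together. The ECL cluster held 0 and 1.77 CPM and 1.96% of its cells had a UMI after thinning, and X/A cells held 6.75 and 0 CPM, while D cells held 31.6 and 11.8 CPM. Levels as low as in ECL and X/A cells were also measured in the mature pit cells of dataset 1. Over the endocrine-like cells Igf1r was lower than in epithelial cells by -3.73 (SE 0.32, adjusted p = 2.85e-10). Stromal-like cells were higher by 1.66 (SE 0.25, adjusted p = 4.45e-06), with 111 and 186 CPM in Acta2-high, 147 and 211 CPM in Pdgfra-high and 262 CPM in the 5 stromal-like cells of pool K. Leukocyte-like cells were lower by -1.72 on 5 UMIs (adjusted p = 0.0115), a call that DESeq2 did not make (adjusted p = 0.0603) and that was lost without pool K (adjusted p = 0.0605).

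Promoter sequences are shown for the ligand and the receptor that, among the major epithelial types, were both highest in neck and chief cells, and for Igfbp2, the member found almost wholly in parietal cells. Each is 300 bases, from 250 before to 50 after the start of transcription, from RefSeq on GRCm38.p6 (the counts were made on GRCm39). Of the 10 members, 9 had an entry. Capitals mark matches, on either strand, to a CCAAT box (CCAAT, read as ATTGG on the other strand), a GC box (GGGCGG, or CCGCCC) or the motif of estrogen-related receptors (AAGGTCA, or TGACCTT), and TATAAA was searched as well.
Igf1 (chr10:87860861-87861160, plus strand): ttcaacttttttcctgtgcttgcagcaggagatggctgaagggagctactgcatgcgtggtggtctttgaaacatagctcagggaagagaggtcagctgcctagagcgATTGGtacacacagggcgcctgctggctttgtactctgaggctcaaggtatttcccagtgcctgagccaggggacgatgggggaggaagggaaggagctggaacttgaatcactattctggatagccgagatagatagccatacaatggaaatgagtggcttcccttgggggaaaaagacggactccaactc
Igf1r (chr7:67952007-67952306, plus strand): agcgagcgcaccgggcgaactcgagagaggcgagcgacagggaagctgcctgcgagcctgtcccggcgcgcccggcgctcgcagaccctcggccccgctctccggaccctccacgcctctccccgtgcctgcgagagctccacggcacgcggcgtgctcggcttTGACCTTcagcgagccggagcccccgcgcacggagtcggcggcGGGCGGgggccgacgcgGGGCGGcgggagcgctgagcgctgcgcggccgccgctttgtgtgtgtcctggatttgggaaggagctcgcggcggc
Igfbp2 (chr1:72824230-72824529, plus strand): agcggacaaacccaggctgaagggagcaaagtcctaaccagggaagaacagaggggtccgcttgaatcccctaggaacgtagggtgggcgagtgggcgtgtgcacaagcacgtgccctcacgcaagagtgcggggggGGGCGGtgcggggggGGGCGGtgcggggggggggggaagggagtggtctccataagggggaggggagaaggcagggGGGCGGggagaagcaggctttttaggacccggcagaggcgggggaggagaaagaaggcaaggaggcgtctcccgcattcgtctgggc

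The Igf1 window held 1 CCAAT box, the Igf1r window 2 GC boxes and 1 estrogen-related receptor motif, and the Igfbp2 window 3 GC boxes. Over all 32851 promoters, 37.4% held a CCAAT box, 35.7% a GC box, 13.6% a TATA box and 4.72% the estrogen-related receptor motif. The window shown for Igfbp2 is the first of its 2 listed starts, and that of the other start held none of these motifs.

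Igf2r, the uptake receptor, was measured at nearly even levels over the epithelium. It lies at chr17:12901293-12988614 on the minus strand (GRCm39), where the antisense gene Airn overlaps it. Its 14 epithelial clusters in dataset 2 ranged from 40.7 to 91.7 CPM, with a median of 60.2. Parietal cells held 79.5 and 79.8 CPM, neck cells 68.8 and 61.3, isthmus cells 59.4 and 55.2, mature pit cells 53.1 and 49.8, and chief cells 43.9 and 40.7 CPM. Relative to isthmus cells it was higher in parietal cells by 0.98 (SE 0.07, adjusted p = 3.49e-08), or 0.47 with total scaling, and in neck cells by 0.25 (SE 0.07, adjusted p = 0.014), a call lost with total scaling (adjusted p = 0.0862). Chief and neck cells were not called at 0.19, and total scaling turned it to -0.63. Mature pit cells (0.19, adjusted p = 0.129) were not called either, and total scaling gave -0.16. In dataset 1 the corpus pit (0.41, adjusted p = 0.0362) and parietal cells (0.51, adjusted p = 0.0111) were higher than isthmus-like cells with TMM, but neither was called with total scaling (adjusted p = 0.762 and 0.501) or by DESeq2 (adjusted p = 0.258 and 0.149). Tuft-like (-1.05, adjusted p = 0.00329) and endocrine-like cells (-0.54, adjusted p = 0.0115) were lower than epithelial cells with TMM and not with total scaling (adjusted p = 0.186 and 0.313). The leukocyte-like clusters held 0 and 0 CPM in dataset 1 and 12.95 and 16.6 CPM in dataset 2, on 2 UMIs in all, lower by -3.24 (adjusted p = 0.000123).

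Insr, the insulin receptor, was higher in parietal, mature pit and neck cells than in isthmus cells. It lies at chr8:3172061-3329647 on the minus strand (GRCm39). Parietal cells held 63.8 and 54.7 CPM, mature pit cells 54.5 and 42.6, neck cells 53.6 and 49.8, pre-pit cells 39.0 and 33.4, isthmus cells 35.1 and 30.8, and chief cells 22.7 and 27.4 CPM. Relative to isthmus cells it was higher by 1.35 in parietal (SE 0.11, adjusted p = 4.63e-08), by 0.89 in mature pit (SE 0.13, adjusted p = 0.000133) and by 0.72 in neck cells (SE 0.11, adjusted p = 8.94e-05), and each was higher with total scaling too (0.85, 0.55 and 0.65). Pre-pit cells differed by 0.34 (adjusted p = 0.0554, or 0.018 with the replicate block). Chief cells were not called against neck cells with TMM (-0.21) and were lower with total scaling (-1.03, adjusted p = 3.6e-05). In dataset 1 Insr was higher in parietal (1.53, adjusted p = 1.36e-05), corpus pit (0.89, adjusted p = 0.0044) and neck cells (0.76, adjusted p = 0.0447, not called by DESeq2). The corpus pit call was lost with total scaling (0.54, adjusted p = 0.0574).

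Mature pit cells had less Igf1 and Igf1r and more Insr than isthmus cells, with non-overlapping pools for each gene in dataset 2.

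**Figure D3:**
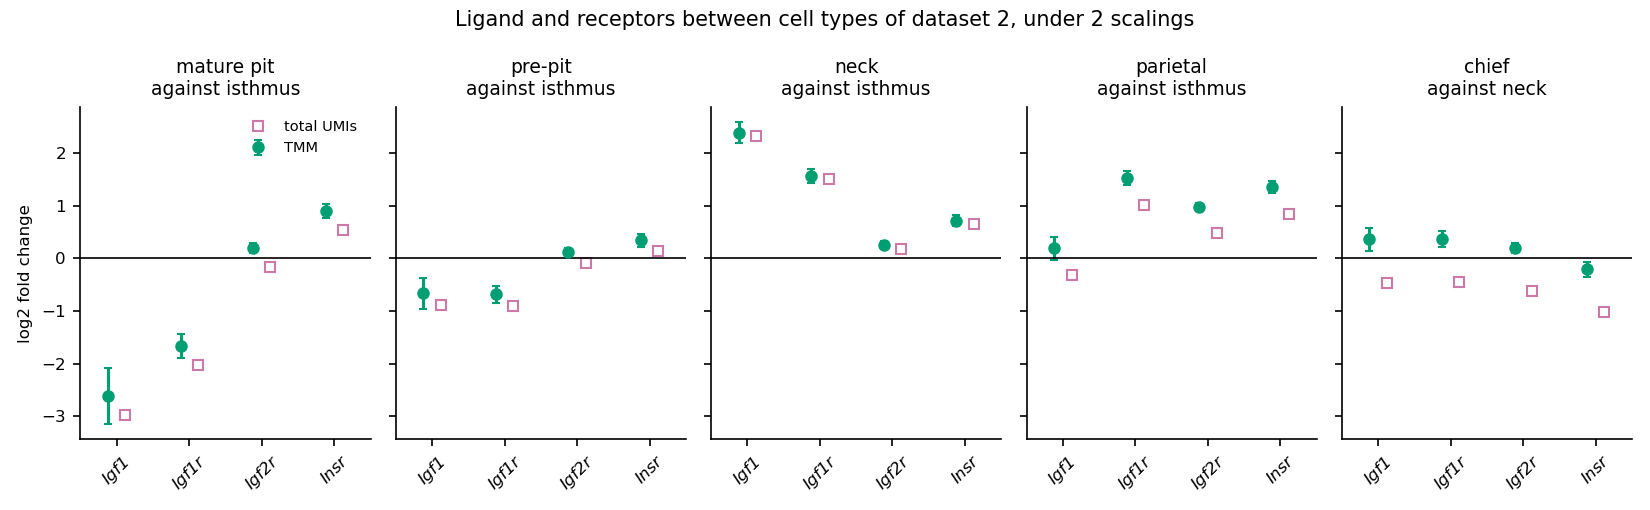
Log2 fold changes of Igf1, Igf1r, Igf2r and Insr in 5 comparisons of dataset 2, with filled symbols and bars for the TMM value ± SE and open squares for scaling by total UMIs. The open squares lie to the lower side in parietal, pit and chief comparisons, and Igf1, Igf1r and Igf2r of chief against neck cells, Igf1 of parietal cells and Igf2r of both pit types change sign.

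Igfbp2, which encodes a binding protein with a preference for IGF2, was found almost wholly in parietal cells. Its gene lies at chr1:72863606-72891634 (GRCm39, plus strand), 5456 bases from the end of Igfbp5, which runs on the other strand. Parietal cells held 774 and 745 CPM in dataset 2 and 580 and 599 CPM in dataset 1. Every pit, isthmus, neck and chief cluster was at 16.9 CPM or less in dataset 2 and at 4.13 CPM or less in dataset 1. The highest of these, isthmus cluster 9 in pool K, had 51 of its 54 UMIs in 1 cell. Relative to isthmus cells Igfbp2 was higher in parietal cells by 8.09 (SE 0.18, adjusted p = 4.58e-13), a fold of 272, and in dataset 1 by 8.30 (SE 0.32, adjusted p = 4.84e-12), a fold of 316. In dataset 1 Igfbp2 passed the filter on low counts only through the parietal sums, so its higher call there was fixed in advance. After thinning, 96.4% of parietal cells had an Igfbp2 UMI (676 of 701) in dataset 2 and 57 of 57 in dataset 1, against 2.35% of isthmus cells (30 of 1279). Without thinning 99.3% of parietal and 9.34% of isthmus cells had one. The corpus pit cells of dataset 1 held none against 7 UMIs in isthmus-like cells (at least 2.74-fold lower, adjusted p = 0.0383), all 7 of them in tube2.

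The low Igfbp2 of the other types was set beside Atp4b, the beta subunit of the proton pump and a parietal marker. Parietal cells of dataset 2 held 4.31 Igfbp2 UMIs per 100 Atp4b UMIs (95% exact interval 4.26 to 4.36). The ratio was 3.45 in neck, 3.32 in isthmus (2.88 to 3.82), 3.19 in pre-pit and 2.96 in mature pit cells, and 1.94 in chief cells (1.08 to 3.22). The intervals of neck, isthmus and chief cells lay below that of parietal cells, and those of both pit types included it. Of the 206 Igfbp2 UMIs of isthmus cells, 51 lay in 1 cell of cluster 9 and 20 in 1 cell of cluster 5, which the interval does not take into account. D cells, which secrete somatostatin, stood above it at 18.9 (10.5 to 31.9), on 17 Igfbp2 and 90 Atp4b UMIs, with 21.1 in pool K and 18.3 in pool T. Igfbp2 was found in 25.9% of D cells after thinning (7 of 27), with levels of 25.3 and 51.2 CPM. In dataset 1 the parietal ratio was 3.61 (3.45 to 3.77), and the intervals of neck, isthmus-like, chief-like and enterocyte-like cells included it. Those of the corpus mature pit cells (no Igfbp2 UMI on 107 of Atp4b, exact interval 0 to 3.51) and the antrum mature pit cells (3 on 15, 3.71 to 70.7) did not. Intervals here cover counting error only.

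**Figure D4:**
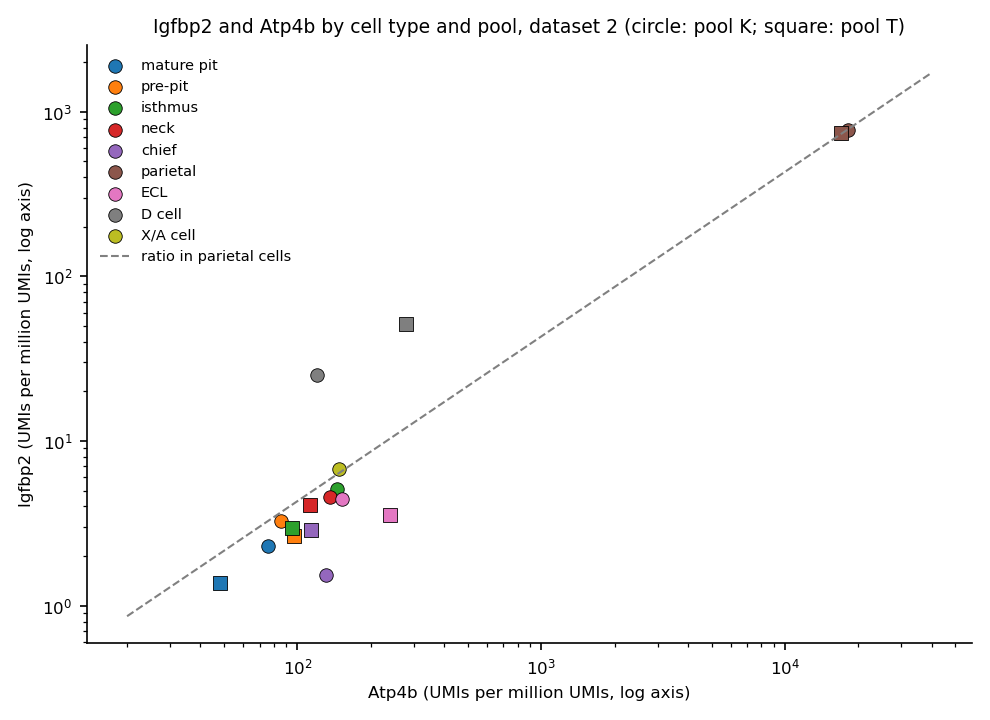
Igfbp2 against Atp4b levels (CPM, both axes logarithmic) by cell type and pool of dataset 2, for types with at least 1 Igfbp2 UMI, with a dashed line at the Igfbp2 to Atp4b ratio of parietal cells. The pit, isthmus, neck, chief and X/A cells lie near or under the line at levels far below parietal cells, and both pools of D cells lie above it.

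Igfbp5, a binding protein held in the matrix, was highest in stromal-like and D cells and, within the epithelium of dataset 2, in pit cells. The gene lies at chr1:72897091-72914043 on the minus strand (GRCm39). Pre-pit cells held 21.6 and 13.3 CPM and mature pit cells 25.4 and 12.03 CPM, isthmus cells 9.66 and 5.21, neck cells 5.71 and 5.42, chief cells 1.16 and 1.57, and parietal cells 1.52 and 1.69 CPM. Relative to isthmus cells it was higher by 1.64 in mature pit cells (SE 0.35, adjusted p = 0.00194) and by 1.43 in pre-pit cells (SE 0.31, adjusted p = 0.004), and lower by -1.70 in parietal cells (SE 0.36, adjusted p = 0.000779). In dataset 1 the parietal cells held none (at least 11.5-fold lower, adjusted p = 0.00189), but the corpus pit cells were not called, and 39 of the 46 tube1 UMIs of corpus pre-pit cells lay in 1 cell. The mature pit cells of dataset 1 held 3.30 and 3.80 CPM in corpus and 1.06 and 4.21 CPM in antrum. Isthmus-like cells held 15.7 and 4.13 CPM. In pool K of dataset 2, 23 of the 55 UMIs of mature pit cells lay in 1 cell. D cells held 215 and 465 CPM and X/A cells 33.8 and 28.4 CPM, while the 79.8 CPM of ECL cells in pool K came almost wholly from 1 cell (35 of 36 UMIs). Endocrine-like cells were higher than epithelial cells by 3.45 (SE 0.60, adjusted p = 3.46e-05). Stromal-like cells held 1110 and 1588 CPM (Acta2-high), 2475 and 899 CPM (Pdgfra-high) and 4451 CPM in pool K of dataset 2, higher by 8.29 (SE 0.67, adjusted p = 5.37e-10). The tuft-like cells were called higher by 3.05 (adjusted p = 0.00179), which rested on pool K (235 CPM, against 0 in pool T): without it the value was -0.0033.

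Igfbp4, whose product is cleaved by the protease pregnancy-associated plasma protein A to free IGF, was almost absent from the epithelium of dataset 2, at no more than 2.10 CPM in any epithelial type. It lies at chr11:98932064-98945218 on the plus strand (GRCm39). The Pdgfra-high stromal-like cluster held 2004 and 2125 CPM, leukocyte-like cells 1728 and 929.6 CPM in dataset 1 and 363 and 16.6 CPM in dataset 2, and endothelial-like cells 187 and 479 CPM in dataset 1. The values were higher than in epithelial cells by 7.93 in stromal-like (SE 0.46, adjusted p = 2.61e-13), by 7.84 in leukocyte-like (SE 0.45, adjusted p = 3.82e-13) and by 6.17 in endothelial-like cells (SE 0.54, adjusted p = 5.41e-10). Within the epithelium it was lower in parietal than in isthmus cells by -4.12 (SE 0.80, adjusted p = 0.000485), on 2 against 88 UMIs. Pre-pit cells were not called (-2.13, adjusted p = 0.0824, or 0.034 with the replicate block). The chief cells held none (in CPM, without TMM scaling, at least 2.78-fold lower than neck cells), and this difference was not called (adjusted p = 0.0704). The replicate block gave adjusted p = 0.034 and total scaling 0.0117 for it. In dataset 1, corpus pit and parietal cells held none, at least 13.6-fold and at least 11.8-fold lower than isthmus-like cells, but 26 of the 33 UMIs of isthmus-like cells lay in 1 cell, and DESeq2 called neither difference (adjusted p = 0.405 and 0.339). The neck cells of dataset 1 held more than those of dataset 2, at 22.6 and 18.9 CPM, on 14 UMIs in 3 cells and 17 UMIs in 6 cells. They were not called against isthmus-like cells (0.95, adjusted p = 0.235).

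Igfbp3, the main carrier of IGF in plasma, was highest in endothelial-like cells. The gene lies at chr11:7156086-7164179 on the minus strand (GRCm39). Endothelial-like cells held 4533 and 3851 CPM in dataset 1 and 2232 and 1539.9 CPM in dataset 2, higher than epithelial cells by 12.78 (SE 0.76, adjusted p = 3.5e-11). Acta2-high stromal-like cells held 476 and 851 CPM and Pdgfra-high cells 44.2 and 219 CPM, and the 995 CPM of the stromal-like cells of pool K came mainly from 1 cell (33 of 38 UMIs). The stromal-like difference was 10.45 (SE 0.74, adjusted p = 4.56e-10). Leukocyte-like cells held none in either dataset.

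Igfbp7, found in blood vessel walls, was high in endothelial-like and stromal-like cells and found in few epithelial cells. It lies at chr5:77493130-77555931 on the minus strand (GRCm39), with an exon that overlaps Polr2b on the other strand. Endothelial-like cells held 12735 and 12120.4 CPM in dataset 1 and 11449 and 12979 CPM in dataset 2, Pdgfra-high cells 5996 and 6399, and Acta2-high cells 2665 and 2075 CPM. The difference from epithelial cells was 15.46 in endothelial-like (SE 0.56, adjusted p = 1.56e-14) and 13.84 in stromal-like cells (SE 0.54, adjusted p = 5.34e-14). The 3826 epithelial cells of dataset 2 held 21 UMIs of Igfbp7, and 6858 of Polr2b. D cells held 707.6 and 748.5 CPM while ECL and X/A cells held none, so within the endocrine cells Igfbp7 was found with somatostatin. In dataset 1 the endocrine-like cluster held 155 and 142 CPM, and 60 of its 63 UMIs lay in the 3 cells whose leading hormone gene was Sst, 42 of them in 1 cell. Endocrine-like cells as a whole were higher by 9.25 (SE 0.48, adjusted p = 3.47e-12).

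**Figure D5:**
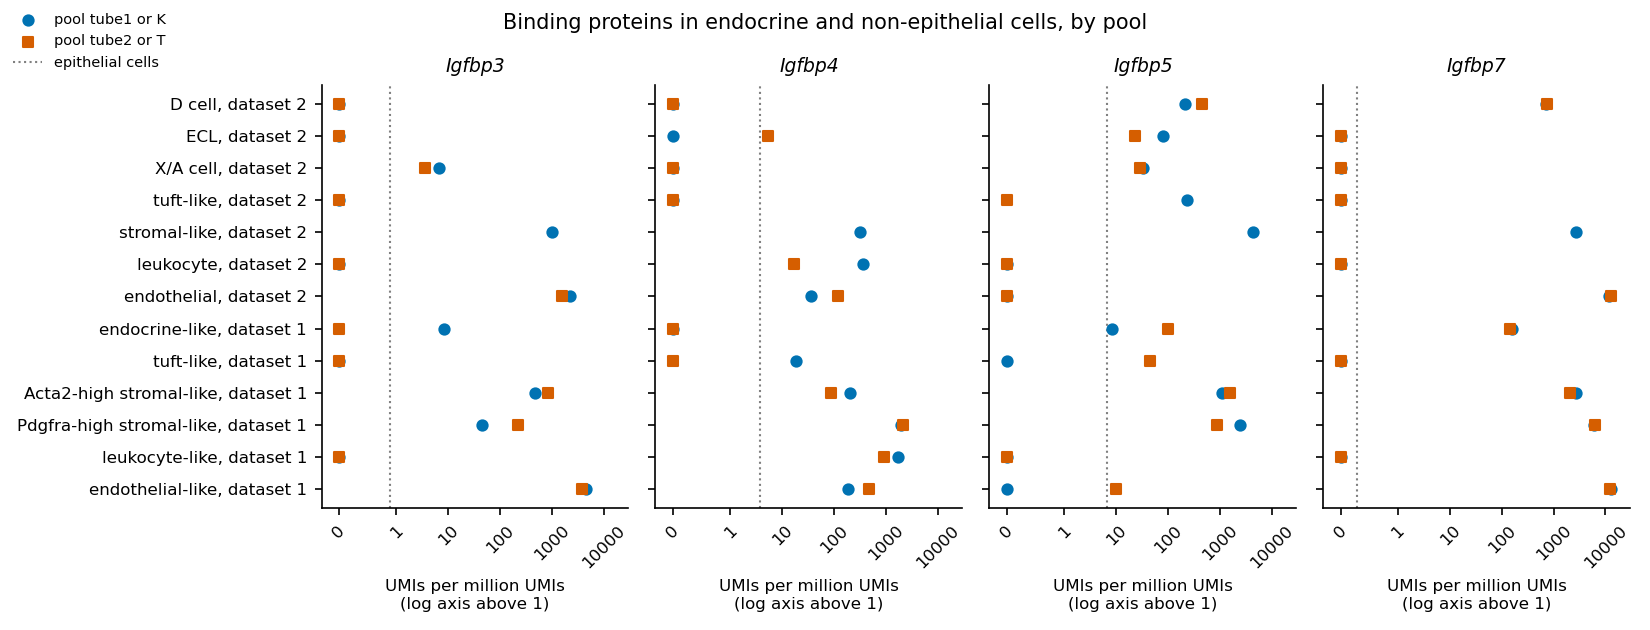
Igfbp3, Igfbp4, Igfbp5 and Igfbp7 levels (CPM, linear to 1 and logarithmic above) in endocrine and non-epithelial types of both datasets, with points for pools and a dotted line for the higher of the 2 datasets' means in epithelial cells. Igfbp7 and Igfbp3 stood highest in endothelial-like cells, Igfbp4 in Pdgfra-high stromal-like and leukocyte-like cells, and Igfbp5 in stromal-like cells, with Igfbp5 and Igfbp7 also high in D cells.

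The Igfbp2 values of non-epithelial cells were called lower in every such comparison, in which the epithelial sum contains the parietal cells. Igfbp2 passed the filter on low counts only through the epithelial sums, so these lower calls were fixed in advance. Stromal-like and leukocyte-like cells held no Igfbp2 UMI, at least 22.1-fold and at least 12.5-fold lower than that sum.

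Clusters within a cell type also differed. Of the 4 neck clusters, cluster 7 held most Igf1 (203 and 116 CPM) and cluster 12 held 127 and 142 CPM, against 74.1 and 70.6 in cluster 0 and 80.4 and 69.5 in cluster 2. Against the other 3 neck clusters together, cluster 12 had 1 of 7 members called (10.3% of all genes, 5.12% higher and 5.17% lower), Igf1, higher by 0.71 (SE 0.20, adjusted p = 0.0243), and with total scaling, which moved the higher share of all calls from 49.8% to 11.3%, the value was 0.48 and not called (adjusted p = 0.0987). The level of cluster 12 lay within the range of the other 3. Igf1r in cluster 12 (157.6 and 142 CPM) was not called (0.40, adjusted p = 0.0647) but was with the replicate block (adjusted p = 0.016).

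Parietal cluster 8, with a median of 12.6% mitochondrial UMIs against 22.8% in cluster 1, had 5 of 7 members called against cluster 1, 1 higher and 4 lower (27.2% of all genes, 12.3% higher and 14.9% lower). Total scaling raised the values by 0.22, moved the higher share of all calls from 45.2% to 78.9%, and left 3 called. Igf2r was lower in cluster 8 by -0.72 (SE 0.10, adjusted p = 5.14e-06) and Insr by -0.62 (SE 0.10, adjusted p = 6.61e-05). Igf1r was lower by -0.56 (adjusted p = 0.00514) and Igfbp2 by -0.46 (adjusted p = 0.041), with 833 and 775 CPM of Igfbp2 in cluster 1 and 651 and 707 CPM in cluster 8. Neither held its call with total scaling (adjusted p = 0.0746 and 0.259), and DESeq2 did not call Igfbp2. Igfbp5 was higher by 2.83 on 46 against 9 UMIs, of which 15 lay in 1 cell in each pool of cluster 8.

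Among the 5 isthmus clusters, Igf1r was highest in cluster 3 (72.6 and 59.6 CPM) and lowest in cluster 9 (26.9 and 28.9 CPM) and pool T of cluster 11 (26.1 CPM). Cluster 11 had 2 of 7 members called against the other 4, 1 in each direction (29.4% of all genes, 14.6% higher and 14.8% lower). Igf1 was lower by -1.18 (SE 0.36, adjusted p = 0.0155), with 10.8 and 8.08 CPM, and Insr was higher by 0.48 (SE 0.11, adjusted p = 0.00145). With the replicate block Igf1r (-0.42, adjusted p = 0.068 without it) and Igfbp5 were called as well (adjusted p = 0.023 and 0.039). By the cell cycle phases in the deposited annotation, isthmus cells in S phase held 69.3 and 62.2 CPM of Igf1r, against 40.1 and 32.3 in G2M and 43.7 and 28.4 in G1. Insr was lowest in G2M, at 26.8 and 25.9 CPM, against 44.4 and 36.2 in S phase and 42.9 and 39.4 in G1. No test was run on the phases.

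Antrum and corpus were compared in the pit cells of dataset 1. No member was called by edgeR (9.24% of all genes, 5.48% higher and 3.75% lower), 1 had an unadjusted p under 0.05 (Insr, -0.56 in antrum against corpus), and DESeq2 called none. The pools held 28.6 and 21.1 CPM of Insr in antrum mature pit cells and 46.2 and 40.5 CPM in corpus mature pit cells. Antrum mature pit cells held 1.59 and 3.37 CPM of Igf1r and corpus mature pit cells 2.198 and 3.80 CPM. The differences between datasets were tested as an interaction for pit, neck and parietal cells: no member had an adjusted p under 0.05 (28, 33 and 67 of 13293 genes did), while 2 members in pit and 4 in parietal cells had an unadjusted p under 0.05.

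Other genes of the pathway were counted as a list of 36, of which 34 were among the gene names. In dataset 2, 24 were tested. Against isthmus cells, mature pit cells had 4 of them higher and 2 lower (38.0% of all genes called), pre-pit cells 4 and 3 (27.8%), neck cells 10 and 2 (50.7%), and parietal cells 14 and 7 (71.8%). Chief against neck cells gave 11 higher and 4 lower (38.6%). These counts depended on the scaling: with total scaling the counts were 2 higher and 14 lower in mature pit, 2 and 11 in pre-pit, 9 and 3 in neck, 9 and 10 in parietal and 5 and 15 in chief cells. In dataset 1, 20 were tested, with 4 higher and none lower in corpus pit (40.7% of all genes called), 3 and 1 in neck (29.3%) and 9 and 4 in parietal cells (60.3%), and none and 3 in antrum against corpus pit cells (9.24%). Total scaling gave 2 and 3 in corpus pit and 8 and 7 in parietal cells.

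Regulators of the binding proteins come first. Stc2, a secreted inhibitor of the protease Pappa, held 96.5 and 114 CPM in mature pit, 67.1 and 76.8 in pre-pit, 37.9 and 42.5 in isthmus, 2.13 and 2.64 in neck and 1.21 and 0.519 CPM in parietal cells. It was higher than in isthmus cells by 1.74 in mature pit (adjusted p = 2.97e-06) and by 1.05 in pre-pit cells (adjusted p = 0.000331), and lower by -4.01 in neck (adjusted p = 9.1e-09) and by -4.97 in parietal cells (adjusted p = 8.82e-10). In dataset 1, antrum pit cells had less Stc2 than corpus pit cells (42.4 against 103 CPM on average, -1.28, adjusted p = 0.000308). Pappa, the protease that cleaves IGFBP4, held 23.1 and 14.0 CPM in parietal and 6.16 and 4.18 CPM in chief cells but 0.0429 and 0.169 CPM in isthmus cells, higher in parietal cells by 7.72 (SE 0.42, adjusted p = 2.7e-09). At these isthmus levels Pappa passed the filter on low counts only through types that held more, parietal cells among them. That it was higher there was therefore fixed in advance. The highest level of Pappa was in Pdgfra-high stromal-like cells, at 236 and 93.8 CPM. Htra1, a protease of the matrix, held 29.7 and 29.8 CPM in chief and 12.98 and 11.6 CPM in parietal cells, and was higher in chief than in neck cells by 3.83 (adjusted p = 4.18e-08). Igfals, the acid-labile subunit that joins circulating IGF complexes, held 16.1 and 20.4 CPM in parietal and 115 and 122 CPM in ECL cells.

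Of the genes that act below the receptors, Akt2, a kinase of the insulin response, held 125 and 125 CPM in parietal against 25.9 and 25.5 CPM in isthmus cells (2.79, SE 0.09, adjusted p = 9.89e-12), and Akt1 was lower (-0.88). Mtor (1.59), Tsc2 (1.74) and Foxo3 (1.497) were also higher in parietal cells. Irs1, an adaptor of both receptors, held 20.8 and 14.1 CPM in mature pit and 5.41 and 5.11 CPM in isthmus cells (2.05, adjusted p = 4.92e-05), and 30.4 and 16.7 CPM in chief against 3.58 and 4.21 CPM in neck cells (3.37, adjusted p = 3.97e-07). Pik3r1, a regulatory subunit of phosphoinositide 3-kinase, held 139 and 139 CPM in neck cells and 26.6 and 23.2 CPM in chief cells (-1.68, adjusted p = 4.97e-07).

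Endocrine clusters differed in the pathway genes they held. Pappa2, a further protease of binding proteins, held 1379 and 1048 CPM in ECL cells and none in D or X/A cells. Irs4, an adaptor, held 520 and 606 CPM in X/A cells, and Insrr, the insulin receptor-related receptor, held 588 and 546 CPM in ECL and 139 and 189 CPM in D cells. Irs2 held 366 and 508 CPM in D cells and 446 and 354 CPM in X/A cells, against 33.4 and 35.04 CPM in isthmus cells. Over all endocrine-like cells the differences from epithelial cells were 11.78, 11.11, 10.70 and 2.68 in that order of genes (adjusted p = 2.86e-09, 9.96e-12, 2.66e-10 and 8.97e-09). Pappa2, Irs4 and Insrr averaged 0.074, 0.030 and 0.18 CPM in epithelial cells, with no UMI in stromal-like, endothelial-like, leukocyte-like or tuft-like cells. They passed the filter on low counts only through the endocrine sums, which fixed in advance that they would be higher in endocrine-like cells. Of 18 listed genes tested there, 7 were higher and 4 lower (58.9% of all genes called), or 9 and 2 with total scaling. The counts were 5 and 1 in stromal-like (52.5%), 4 and 2 in endothelial-like (51.2%), 2 and 1 in leukocyte-like (50.4%) and 1 and 1 in tuft-like cells (43.2%), and total scaling gave 5 and 0, 4 and 1, 2 and 1, and 3 and 0. These counts include calls fixed by the filter. Htra1, Grb10 and Stc1 averaged 4.85, 1.12 and 0.044 CPM in epithelial cells and passed only through classes where they were high. Htra1 and Grb10 were called higher in stromal-like cells, and Stc1 and Grb10 in endothelial-like cells.

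The genes whose levels ran most like each member were named by Pearson's r of log2(CPM + 1) over the 20 clusters of dataset 2, among 15453 genes with at least 50 UMIs, as a description: the clusters share pools and plates. Igfbp2 was closest to Smim38 (0.943), Slc26a9 (0.940) and Atp4b (0.937), and Igfbp3 to Ehd2 (0.988), Sparcl1 (0.982) and Tmem204 (0.972). Igf1 was closest to Adamtsl4 (0.828), Swap70 (0.819) and Zmat5 (0.815), and Igf1r to Prodh (0.818), Lamb2 (0.799) and Slc26a11 (0.797). Igf2r was closest to Acss2 (0.949995), Insr to Acad10 (0.886), Igfbp4 to Emp3 (0.968), Igfbp5 to Tcte2 (0.949) and Igfbp7 to Atp1b2 (0.939). Between members the values were 0.69 for Igf1 and Igf1r, 0.78 for Igf2r and Insr and 0.80 for Igfbp3 and Igfbp7.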

How the data were processed

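The deposited tables held UMI counts per gene and cell, which the authors made from Quartz-Seq2 reads (bcl2fastq 2.20.0.422, FASTX-Toolkit, Drop-seq tools, STAR, GRCm39 with a GENCODE annotation), without normalization, and whether counting used strand is not given in the sources used here. The authors deposited the percent of mitochondrial UMIs per cell and the Seurat clusters, and kept cells with at least 2500 detected genes. Clusters took their names from the deposited annotation and the study, and no doublet caller was run. The labels name ToPro3 as the dead-cell dye of the sort in both datasets.

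Counts were summed by pool and cell type, and well barcodes were reused between plates (296 distinct over 491 cells and 384 over 3993). Tests used edgeR 4.0.16 (R 4.3.3) with TMM scaling and its default filter on low counts (13894 genes in dataset 2 types, 12922 in dataset 2 clusters, 10229 in dataset 1, 5667 against the epithelium), after a check on simulated data. DESeq2 1.42.0 was an alternative. The replicates were pools of different mice, 2 per dataset, and cells of 1 pool share the same mice, so the pool was fitted as a replicate block in an alternative. Deviations of types from the same pool correlated with a median r of 0.132, 0.0987 and 0.0245 in these 3 epithelial fits. Shares used cells thinned to 10000 UMIs with exact (Clopper-Pearson) binomial 95% intervals, which cover counting error only, while a count of 0 was given a limit of 3 counts, for shares as for folds (over the group). The members, gene lists and comparisons were chosen with earlier results of these data known. All 10 members are named, and pathway genes from a list of 36 were named only where a comparison called them, though not every called gene is reported here. Python 3.11.15, numpy 2.4.6, pandas 2.3.3 and scipy 1.17.1 were used.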

Additional observations from a re-analysis of the deposited data

Results flagged for a closer look

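In 5 of 52 combinations of member, cell type and pool in dataset 2, 1 plate of 6 stood apart from the others by Dixon's test, where chance gives about 1 in 20. Igfbp2 in isthmus cells of pool K reached 16.5 CPM on 1 plate (74 UMIs, 51 of them in 1 cell of cluster 9), against 1.55 to 3.35 CPM on the others. Igf1 in neck cells of pool T reached 107.67 CPM on 1 plate (234 UMIs), against 74.0 to 85.2 CPM. Insr in neck cells of pool T reached 60.3 CPM on 1 plate (131 UMIs), against 46.0 to 50.3 CPM. Igf2r in mature pit cells of pool K reached 81.6 CPM on 1 plate (22 UMIs), against 40.2 to 54.8 CPM. Igf1r in pre-pit cells of pool T reached 37.0 CPM on 1 plate (39 UMIs), against 18.1 to 24.7 CPM.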

How the results depend on the processing

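Of 68 called member differences, 68 kept their call and direction with the pool as a replicate block, 57 with total UMIs as scaling, 65 with RLE size factors, 60 with DESeq2 and 65 without the filter on low counts. With total scaling 12 member values changed sign, 0 of them called with TMM. These were Igf1 of parietal against isthmus cells (0.19 to -0.31), Igf1, Igf1r and Igf2r of chief against neck cells (to -0.46, -0.45 and -0.63), Igf2r of mature pit and pre-pit cells (to -0.16 and -0.09), Igf2r, Insr and Igfbp5 of neck cluster 12 (to -0.08, -0.08 and -0.22), Igfbp5 of the corpus pit cells of dataset 1 (to -0.05), Igf2r of stromal-like (to 0.07) and Igfbp4 of tuft-like cells (to 0.22). Leaving out 1 pool turned Igf1 of parietal cells to -0.15 without pool T (0.57 without pool K), Igfbp2 of the corpus pit cells of dataset 1 to 0 without tube2 (-1.63 without tube1), and Igfbp5 of tuft-like cells to -0.0033 without pool K (up to 3.64 without another pool). The cause was not tested.

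The number of members called moved as follows. Pre-pit cells (2) had 4 with total scaling, 4 without the filter, 5 with the replicate block and 4 with plates as units. Chief against neck cells (0) had 2 with RLE factors, 5 with total scaling, 1 with DESeq2, 2 without the filter, 2 with the replicate block and 2 with plates. Neck cluster 12 (1) had 0 with total scaling and 2 without the filter, with the replicate block or with plates. Parietal cluster 8 (5) had 3 with total scaling, and isthmus cluster 11 (2) had 5 without the filter and 4 with the replicate block. Leukocyte-like cells (5) had 3 with plates, 2 in dataset 1 alone and 3 to 5 leaving out 1 pool, the 3 without pool T. Tuft-like cells (5) had 2 with total scaling, 3 with plates, 0 in dataset 1 alone and 2 to 5 leaving out 1 pool, the 2 without pool K or pool T. Endocrine-like cells (6) had 3 in dataset 1 alone.

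Shares of cells without thinning were 62.0% for Igf1 in neck and 48.3% in chief, 89.5% for Igf1r in neck and 30.6% in mature pit, and 99.3% for Igfbp2 in parietal cells. As a mean over cells, Igf1 in chief cells was 80.2 CPM and Igf1r in mature pit cells 14.1 CPM. The count of all genes called moved with total scaling from 5358 to 9800 in chief against neck cells and from 1330 to 2900 in neck cluster 12, and with DESeq2 from 4166 to 2408 in corpus pit cells, from 2996 to 1458 in neck cells and from 945 to 548 between antrum and corpus in dataset 1. Leaving the filter out raised it from 2974 to 5585 in stromal-like, 2902 to 4512 in endothelial-like, 2858 to 4761 in leukocyte-like, 2450 to 4331 in tuft-like and 3338 to 8606 in endocrine-like cells, and plates as units lowered these to 1627, 1720, 1655, 1519 and 1952. Dataset 2 alone gave 1254 in stromal-like and 5805 in endocrine-like cells, dataset 1 alone 1494 in tuft-like and 2113 in endocrine-like cells, and leaving out tube1 5283 in endocrine-like cells.

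In the epithelial fits, leaving out a pool left values with no test. Types with few cells limit the depth: 9 endothelial, 13 leukocyte and 5 stromal-like cells in dataset 2, and 8 leukocyte-like cells in dataset 1.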
